A study of Mus musculus with 8 samples.

Results

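Early lymphoid genes were measured in sorted dendritic cell (DC)-restricted progenitors. The genes are Dntt, Rag1, Rag2, Il7r, Ebf1, Pax5, Vpreb1, Vpreb2, Vpreb3 and Igll1. They were chosen by name as genes of early lymphoid development, with earlier results of these data known. All 10 of 10 were found among the 16119 genes of the count table, and all 10 were among the 15837 genes that passed the filter on low counts. The cells were common DC progenitors (CDPs), sorted from bone marrow (BM) as CD115+ Flt3+ Lin- cells with intermediate c-Kit and low Sca-1, at about 50000 cells a sample. RNA from 4 samples of high fat diet (HFD) mice (60 kcal% fat, labelled DIO) was compared with RNA from 4 samples of chow-fed (CF) mice (10 kcal% fat, labelled DIO-Control), to ask how diet-induced obesity changes these progenitors. All mice are labelled C57BL/6 and as fed for 16 weeks, while the study's methods describe purchased C57BL/6J males and give 16 weeks as their age. The sources give 4 independent replicates per diet without saying whether a replicate was 1 mouse or a pool. The diet comparison is therefore tested against the spread between these samples.

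Lymphocytes assemble their antigen receptors by V(D)J recombination. Rag1 and Rag2 form the recombinase that cuts DNA at the receptor loci, and Dntt encodes terminal transferase, which adds untemplated bases at the junctions. Il7r encodes the receptor chain for interleukin-7, Ebf1 and Pax5 are the transcription factors that specify and commit the B lineage, and Vpreb1, Vpreb2 and Igll1 encode the surrogate light chain of the pre-B cell receptor. Vpreb3 encodes a related protein of early B cells. In the BM, Rag genes and Dntt are switched on in common lymphoid progenitors, and some DC progenitors, above all on the way to plasmacytoid DCs (pDCs), also carry Rag and Dntt transcripts.

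Vpreb1 and Vpreb2 are near copies, which bears on how their counts are read. On GRCm38 the coding region of Vpreb1 lies in exonic sequence at chr16:16868596-16869111 on the minus strand and that of Vpreb2 at chr16:17980565-17981080 on the plus strand, with an intron inside both intervals. Each is 429 nt long, and they differ at 9 bases, which is 97.9% identity. Their longest identical run is 196 nt. Below are the 300 bases from each start codon, 5′ to 3′, as read from GENCODE vM21 transcripts on that build, with capitals at the 4 bases that differ in this stretch.
Vpreb1: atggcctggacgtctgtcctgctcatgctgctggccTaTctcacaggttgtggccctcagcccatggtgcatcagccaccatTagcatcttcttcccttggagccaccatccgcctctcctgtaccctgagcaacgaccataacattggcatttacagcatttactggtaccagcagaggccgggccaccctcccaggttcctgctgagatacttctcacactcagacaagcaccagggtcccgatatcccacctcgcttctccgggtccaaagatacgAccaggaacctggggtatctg
Vpreb2: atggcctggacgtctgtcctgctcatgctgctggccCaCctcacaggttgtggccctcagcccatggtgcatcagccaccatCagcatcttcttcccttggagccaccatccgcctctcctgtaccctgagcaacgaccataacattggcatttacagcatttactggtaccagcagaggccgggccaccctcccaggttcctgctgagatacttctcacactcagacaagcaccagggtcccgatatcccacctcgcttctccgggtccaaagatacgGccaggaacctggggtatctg
Of the 75-nt windows in the annotated transcript, 136 of 692 (19.7%) in Vpreb1 and 136 of 685 (19.9%) in Vpreb2 were found in the other gene. A single read inside such a window has no unique place unless its mate lies outside, so both genes were also counted as a sum. Rag2 shared 136 of 3350 windows (4.06%) and Rag1 8 of 6534 with B230118H07Rik, a gene that overlaps the exons of both and was at 2.58 to 5.27 CPM (counts scaled to the same library size). The other 6 genes shared 0 windows with another transcript.

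Rag1 (chr2:101638282-101649501, minus strand) and Rag2 (chr2:101624718-101632529, plus strand) are neighbours that converge on chromosome 2, and Dntt lies at chr19:41029275-41059525 on the plus strand. Since Rag2 varied with both Dntt and Rag1 across libraries, the 250 bases before their RefSeq start sites are shown for comparison, from GRCm38.p6 and in the direction of transcription. Capitals mark every match, on either strand, to 7 motifs. These were the E-box CAGGTG, the E-box with CAGCTG, the Ikaros core TGGGAA, the RUNX core TGTGGT, the GATA core AGATAA, the PU.1 site GAGGAAGT and the EBF1 palindrome, which has TCCC and, after any 2 bases, GGGA.
Dntt, chr19:41029025-41029274: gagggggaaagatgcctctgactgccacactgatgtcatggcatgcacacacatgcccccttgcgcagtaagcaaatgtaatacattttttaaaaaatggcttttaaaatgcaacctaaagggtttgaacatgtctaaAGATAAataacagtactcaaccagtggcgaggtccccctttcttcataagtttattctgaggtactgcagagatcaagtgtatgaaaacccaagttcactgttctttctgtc
Rag1, chr2:101649533-101649782: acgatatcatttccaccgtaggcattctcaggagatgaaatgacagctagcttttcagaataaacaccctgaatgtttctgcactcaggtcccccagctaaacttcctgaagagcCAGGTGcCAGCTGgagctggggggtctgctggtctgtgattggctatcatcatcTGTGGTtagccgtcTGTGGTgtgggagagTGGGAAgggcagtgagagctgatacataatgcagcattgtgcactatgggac
Rag2, chr2:101624462-101624711: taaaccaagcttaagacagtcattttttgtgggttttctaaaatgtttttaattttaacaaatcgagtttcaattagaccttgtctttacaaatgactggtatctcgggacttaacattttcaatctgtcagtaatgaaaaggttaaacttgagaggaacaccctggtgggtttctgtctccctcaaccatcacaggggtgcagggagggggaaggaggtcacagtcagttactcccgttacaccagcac
The Rag1 window held 1 match to each E-box, 1 to the Ikaros core and 2 to the RUNX core. The Dntt window held 1 GATA core, and the Rag2 window held 0 matches. Of 32851 such windows of annotated genes, 17.2% held CAGGTG, 4271 windows held the E-box with CAGCTG, 21.6% the Ikaros core, 14.0% the RUNX core, 9.99% the GATA core, 2.44% the PU.1 site and 0.779% the EBF1 palindrome. Among the 10 genes, 4 held CAGGTG, 3 the other E-box, 3 the Ikaros core (Ebf1 in the second of its RefSeq windows), 4 the RUNX core, 1 the GATA core and 0 the PU.1 site or the EBF1 palindrome. By GENCODE coordinates the windows of Il7r, Ebf1, Vpreb1 and Vpreb3 lie inside the span of the gene, and that of Vpreb2 overlaps its transcript. The CAGGTG of Vpreb1 and that of Vpreb2 lie in near-identical sequence, so they are not independent matches. A match describes the letters and is not evidence of binding.

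The libraries held 28203651 to 38969160 counts in HFD and 32575696 to 48409689 in CF. Short non-coding genes took 8.50 to 13.6% of counts in HFD and 21.7 to 33.9% in CF, and protein-coding genes 38.9 to 41.9% in HFD and 28.3 to 42.0% in CF. The part of this composition in the diet comparison was not tested. Levels are given as CPM of the TMM-normalized library size. The genes of the sort gate were detected in every library, with Csf1r (CD115) at 79.4 to 132.9 CPM and Kit at 34.2 to 53.6 CPM. HFD 1 stood apart. Its Flt3 level was 88.8 CPM against 227.5 to 378 CPM in the other libraries, and its 15 neutrophil markers summed to 20912 CPM against 980 to 6698 CPM. S100a8, among these markers, reached 5155 CPM there. Its 12 erythroid markers summed to 911 CPM against 126 to 213 CPM in the other libraries, and its 12 monocyte and macrophage markers to 2203 CPM against 429 to 1321 CPM. The 13 mature B cell markers in the table summed to 571 to 1337 CPM in HFD and 410 to 632 CPM in CF, again with HFD 1 highest. Of 20 T lineage and NK cell markers, 6 were not in the table (Ptcra, Trac, Trbc1, Ncr1, Gzma and Prf1), the T cell receptor subunit Cd3e was at 0 to 1.67 CPM, and the 14 in the table summed to between 35.5 and 59.0 CPM. In a bulk sample, fewer cells of a type and less RNA per cell cannot be told apart.

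Early lymphoid transcripts were present in all 8 libraries, and Dntt was the most abundant. Per kilobase of exon, its level was 70.6 ± 41.7 CPM (SD, n = 8), at the 98.5th percentile of 11913 protein-coding genes. Il7r followed at 11.8 ± 5.05 CPM per kilobase, then Rag1 at 7.31 ± 4.23 and Vpreb3 at 4.45 ± 1.65 on the same scale. Dntt exceeded Il7r, and Il7r exceeded Rag1, in 8 of 8 libraries. The lower 6 genes lay between 3.30 and 1.18 CPM per kilobase, in the order Rag2, Pax5, Ebf1, Vpreb1, Igll1 and Vpreb2. The place of Igll1 depends on the length taken. It was divided by 2164 nt of exon, while its longest protein-coding transcript has 870 nt. Its level on that shorter length would be higher and was not computed. Even Vpreb2, at 1.18 ± 0.61, ranked at the 25.9th percentile. The ranges of all neighbours in this order overlapped. Vpreb1 was above Igll1 in only 4 of the 8 libraries, and Rag2 above Pax5 and Igll1 above Vpreb2 in only 5.

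**Figure D1:**
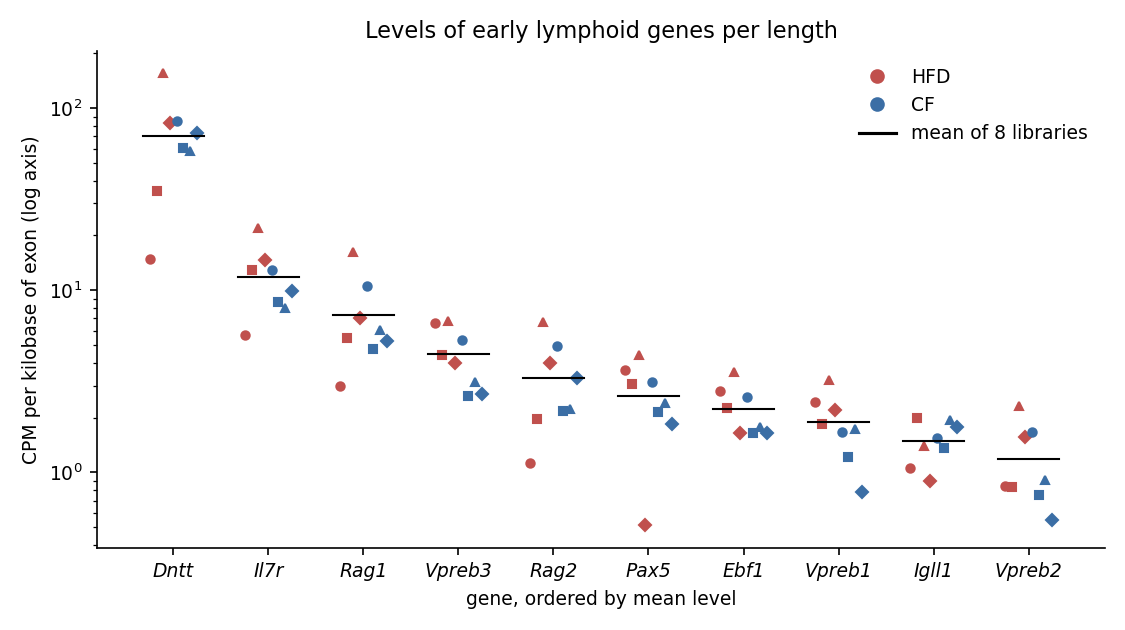
Levels of the 10 genes in CPM per kilobase of exon (log axis), with each library as a point, HFD in red and CF in blue, replicates 1 to 4 as circle, square, triangle and diamond, and the mean of 8 libraries as a line. Dntt has the highest mean, 70.6, with a range that overlaps that of Il7r, and Pax5 in HFD 4 falls far below the other Pax5 points.

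No early lymphoid gene passed the test of HFD against CF. In the edgeR quasi-likelihood fit over all genes, 0 of 10 passed an adjusted p of 0.05, while 67 of 15837 genes (0.423%) did, all of them lower in HFD. That number rested on single libraries, since it was 200 without HFD 1 (34 of them higher), 154 without CF 4, 1 or 2 without HFD 2 or HFD 4 and 0 without HFD 3, CF 1, CF 2 or CF 3. It was also 0 on protein-coding genes alone and with the replicate number as a block. DESeq2 called 64 genes higher and 503 lower. DESeq2 also called 0 of the 10 and 3.58% of all genes, and limma voom 0 of the 10 and 0.442%. At an unadjusted p under 0.05, each of these tools had 2 of the 10, beside 9.31% of all genes by DESeq2 and 8.93% by limma voom. At an unadjusted p under 0.05 by edgeR, 1 of the 10 was higher in HFD (Vpreb1) and 0 lower, beside 3.22% of all genes higher, 5.34% lower and 8.56% in either direction. In either direction, that count of 1 was 0 without HFD 3 (where Vpreb1 no longer passed), beside 1403 of all 15909 genes tested there. It was 4 without HFD 4 (beside 1130 of 15910) and 3 without CF 1 (1134 of 15906). It was 2 without HFD 1 (2309 of 15863) or HFD 2 (1288 of 15882). With library size alone it was 3 (2182 of 15837) and with the block 2 (911 of 15837). The fitted value was above 0 for 9 genes and below 0 for Igll1, with a median log2 fold change of 0.35 over the 10 and 0.055 over all genes tested. Of all genes tested, 59.7% also had a fitted value above 0.

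**Figure D2:**
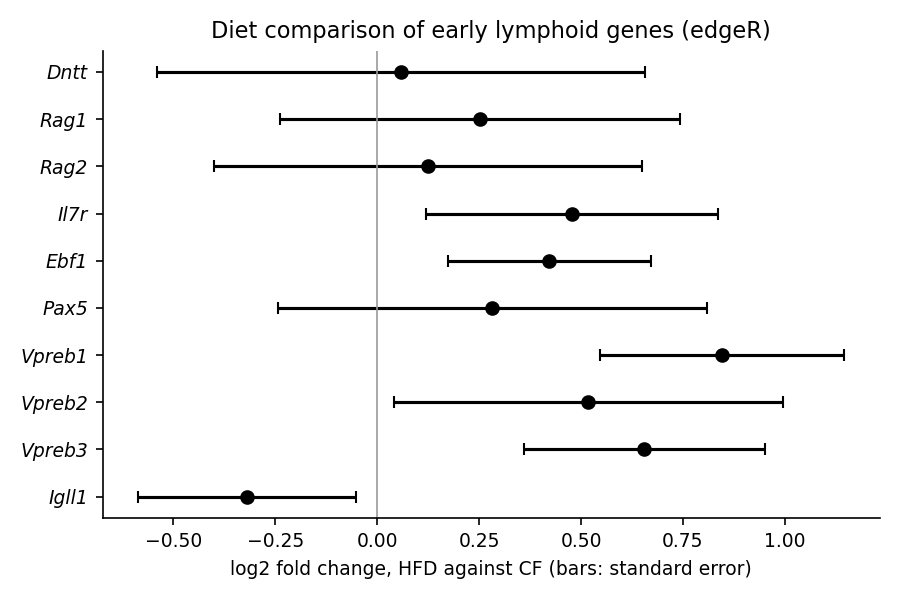
Log2 fold change of HFD against CF from edgeR for each of the 10 genes (point), with its standard error (bar). The values run from -0.32 for Igll1 to 0.85 for Vpreb1, and none passed the adjusted threshold.

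Dntt differed more among HFD libraries than among CF libraries. Its level was 33.9, 80.8, 356 and 189.6 CPM in HFD 1 to 4 and 194.4, 138, 133.5 and 168.4 CPM in CF 1 to 4. Thus the CF range lay inside the HFD range, HFD 3 was highest and HFD 1 lowest of all 8. The highest HFD library was 10.5-fold above the lowest, against 1.46-fold in CF. The HFD span was 4.41-fold without HFD 1 and 5.59-fold without HFD 3. The diets did not separate (log2 fold change 0.06 ± 0.60 SE, edgeR adjusted p = 0.99), and the fitted value was 0.40 without HFD 1 and fell to -0.64 without HFD 3.

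The recombinase genes followed the same order of HFD libraries. Rag1 was at 19.8, 36.3, 107 and 46.6 CPM in HFD 1 to 4 and at 70.2, 31.5, 40.2 and 34.6 CPM in CF 1 to 4. Rag2 was at 3.85, 6.73, 22.9 and 13.7 CPM in HFD and at 16.8, 7.44, 7.62 and 11.4 CPM in CF. In both genes HFD 3 was highest, HFD 1 lowest and CF 1 the highest of its diet. HFD libraries spanned 5.43-fold for Rag1 and 5.94-fold for Rag2, and CF libraries 2.23-fold and 2.26-fold. Without HFD 3 the HFD span was 2.36-fold for Rag1 and 3.55-fold for Rag2, and without HFD 1 it was 2.96-fold and 3.40-fold. Without CF 1 the CF span of Rag1 was 1.27-fold. The log2 fold change was 0.25 ± 0.49 (SE) for Rag1 and 0.12 ± 0.52 (SE) for Rag2, with edgeR adjusted p = 0.95 and 0.98. Both signs turned without HFD 3, to -0.37 and -0.42.

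Il7r, which marks lymphoid progenitors that respond to interleukin-7, was at 26.3, 60.1, 102 and 68.0 CPM in HFD 1 to 4. In CF 1 to 4 it was at 60.4, 40.0, 37.3 and 46.4 CPM. HFD 3 and HFD 4 lay above every CF library, HFD 2 lay just under CF 1, and HFD 1 lay below all of them. The log2 fold change was 0.48 ± 0.36 (SE, edgeR adjusted p = 0.82), and it was 0.74 without HFD 1 and 0.16 without HFD 3, with 0 of the 10 genes called in either fit.

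The B lineage factors ranked the libraries differently. Ebf1 was at 27.4, 22.1, 34.6 and 16.0 CPM in HFD 1 to 4 and at 25.3, 16.0, 17.3 and 16.1 CPM in CF 1 to 4. HFD 3 and HFD 1 were above every CF library, HFD 4 was level with the lowest CF libraries, and CF 1 stood above the rest of its diet (log2 fold change 0.42 ± 0.25 SE, edgeR adjusted p = 0.76). Pax5 was at 32.3, 26.9, 38.9 and 4.54 CPM in HFD and at 27.7, 19.0, 21.3 and 16.4 CPM in CF. In HFD 4 it rested on 187 counts, against 598 to 1482 in the other libraries, and fell below all of them. The log2 fold change of Pax5 was 0.28 ± 0.53 (SE, edgeR adjusted p = 0.95), and it was 0.59 without HFD 4 and 0.0083 without HFD 3. Of the genes that overlap Pax5 on the opposite strand, 5730488B01Rik was at 0.78 to 2.57 CPM and Gm12462 at 0.19 to 1.12 CPM, and whether counting used strand is not given in the sources used here.

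Vpreb1 was the only gene of the 10 whose diets did not overlap. It was at 2.92, 2.20, 3.86 and 2.65 CPM in HFD 1 to 4 and at 1.99, 1.46, 2.08 and 0.94 CPM in CF 1 to 4. The lowest HFD library was thus 2.20 CPM and the highest CF library 2.08 CPM, a narrow gap at 36 to 147 counts a library. Of all genes tested, 6.16% had diets that did not overlap, 2.58% with HFD higher and 3.58% with HFD lower. Vpreb1 had a log2 fold change of 0.85 ± 0.30 (SE) and an unadjusted p of 0.020, but the adjusted p was 0.39 by edgeR over all genes tested. Its exons overlap those of Top3b by 108 nt on the opposite strand, and Top3b was at 22.0 to 31.3 CPM.

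Vpreb2 was scarce, at 0.64, 0.63, 1.76 and 1.19 CPM in HFD 1 to 4 and at 1.27, 0.57, 0.69 and 0.42 CPM in CF 1 to 4, or 16 to 67 counts. The diets overlapped widely (log2 fold change 0.52 ± 0.48 SE, edgeR adjusted p = 0.86), and the value was 0.16 without HFD 3 and 0.92 without CF 1. Summed with Vpreb1, the levels were 3.56, 2.83, 5.61 and 3.83 CPM in HFD and 3.26, 2.04, 2.77 and 1.35 CPM in CF. The sum overlapped between diets, since CF 1 lay above HFD 2, and its log2 fold change was 0.75 ± 0.32 (SE, edgeR adjusted p = 0.54).

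Vpreb3 was at 5.68, 3.78, 5.80 and 3.45 CPM in HFD 1 to 4 and at 4.60, 2.26, 2.68 and 2.31 CPM in CF 1 to 4. Only CF 1 reached into the HFD range (log2 fold change 0.66 ± 0.29 SE, edgeR adjusted p = 0.60). Igll1, the λ5 part of the surrogate light chain, was the only gene with a lower fitted value in HFD. Its levels were 2.28, 4.28, 3.02 and 1.94 CPM in HFD and 3.36, 2.96, 4.19 and 3.85 CPM in CF, so that HFD held both the highest and the lowest library (log2 fold change -0.32 ± 0.27 SE, edgeR adjusted p = 0.84). Against Vpreb1, its partner in the surrogate light chain, Igll1 had r = -0.44 over the 8 libraries (exact permutation p = 0.28, adjusted p = 0.59; rho = -0.36, exact p = 0.39, adjusted p = 0.77), and -0.47 without HFD 3 and CF 4.

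**Figure D3:**
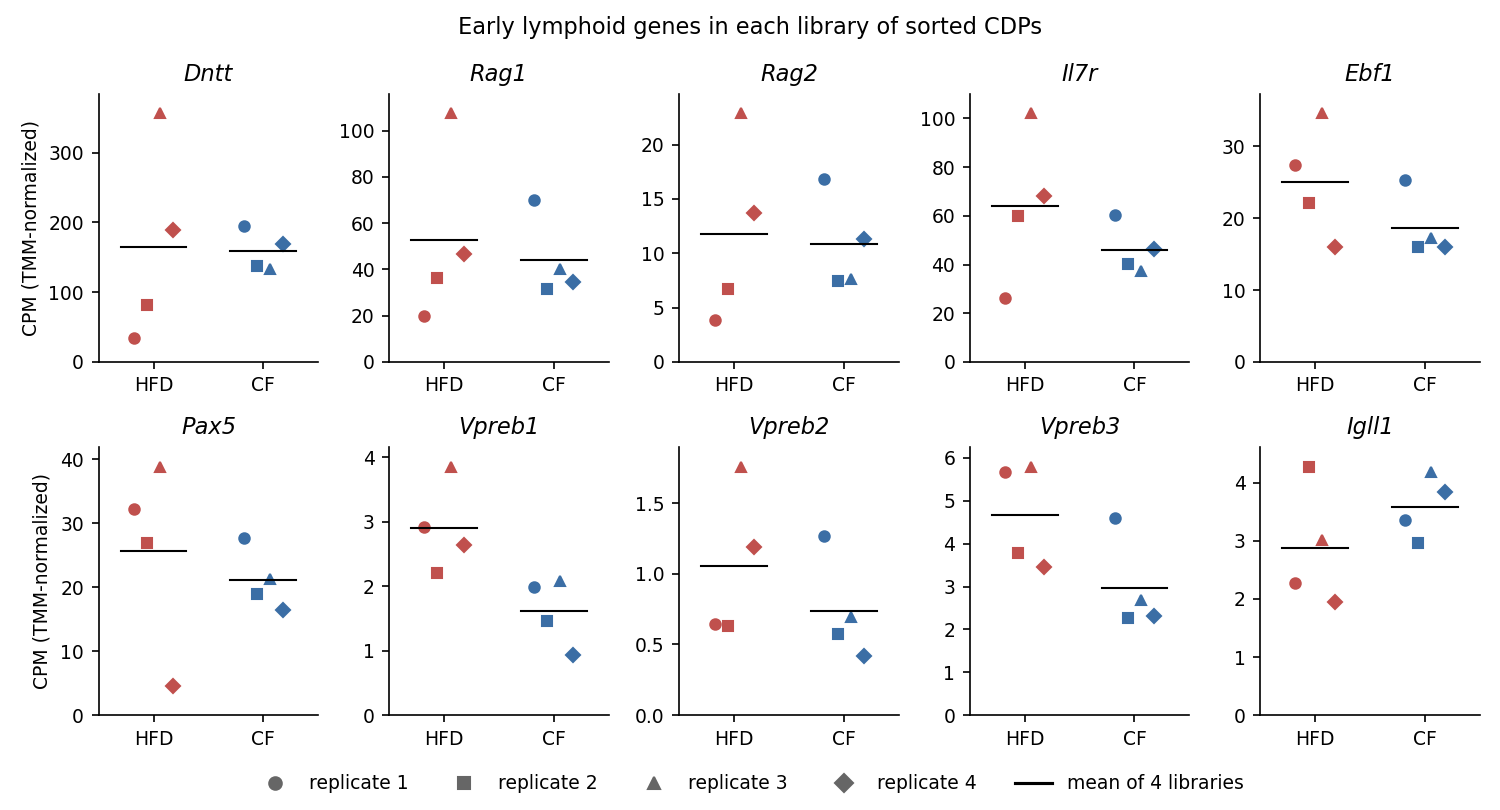
CPM (linear axes from 0) of each gene in the 4 HFD (red) and 4 CF (blue) libraries, with replicates 1 to 4 as circle, square, triangle and diamond and the mean as a line. HFD 3 is the highest library for 9 of the genes shown, all but Igll1, and the diets are apart for Vpreb1 alone.

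Spread within HFD exceeded that within CF for 8 of the 10 genes, as it did for 67.2% of all genes tested. On the log2 scale the SD among HFD libraries was 1.48 for Dntt and 1.43 for Pax5, at the 96.1th and 95.9th percentile of genes tested, where the median gene had 0.32. It was 1.12 for Rag2, 1.01 for Rag1 and 0.82 for Il7r. The SD of Pax5 rested on HFD 4, without which it was 0.27 and below the 0.32 of CF. That of Il7r was 0.40 without HFD 1, that of Rag1 0.64 without HFD 3, and that of Dntt 1.07 without HFD 1. Among CF libraries the SD was 0.25 for Dntt, close to the median gene's 0.24, and 0.31 to 0.55 for Pax5, Rag2, Rag1 and Il7r. Without CF 1 it was 0.18 for Dntt, 0.19 for Pax5, 0.34 for Rag2, 0.18 for Rag1 and 0.16 for Il7r. Vpreb1 (0.33 in HFD, 0.51 in CF) and Vpreb3 (0.39 in HFD, 0.47 in CF) had the smaller SD in HFD. Each of these rested on 1 CF library. The CF value was 0.27 for Vpreb1 without CF 4 and 0.13 for Vpreb3 without CF 1, both below HFD. With HFD 3 or HFD 4 left out, 7 of the 10 genes had the larger SD in HFD. No test of these spreads was made.

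Across the 8 libraries Rag2 varied with Dntt and with Rag1, and Ebf1 varied with Vpreb3. The relations were computed for all pairs of the 10 genes and for each gene with Flt3, summed neutrophil markers and summed mature B cell markers, 75 in all, with exact two-sided permutation tests and Benjamini-Hochberg adjustment. Among pairs of the 10 genes, Dntt and Rag2 had the highest r (r = 0.94, exact p = 5e-05, adjusted p = 0.0037; Spearman rho = 0.98, exact p = 0.0004, adjusted p = 0.028), and r was still 0.86 without HFD 1 and HFD 3, the libraries farthest from the median of Dntt. Rag1 and Rag2 had r = 0.93 (exact p = 0.0007, adjusted p = 0.013; rho = 0.88, exact p = 0.0072, adjusted p = 0.068), and 0.80 without the same libraries. Dntt and Rag1 had r = 0.87 (exact p = 0.0059, adjusted p = 0.044; rho = 0.81, exact p = 0.022, adjusted p = 0.091), but 0.54 without HFD 1 and HFD 3. Dntt and Il7r had r = 0.80 (exact p = 0.018, adjusted p = 0.076; rho = 0.83, exact p = 0.015, adjusted p = 0.077), but r = 0.14 without HFD 1 and HFD 3. Leaving out the libraries farthest from the median also narrows the range of Dntt, so the drop cannot decide whether the relation rests on them. Il7r also had r = 0.89 with Rag1 (exact p = 0.0044, adjusted p = 0.040; rho = 0.83, exact p = 0.015, adjusted p = 0.077) and r = 0.87 with Rag2 (exact p = 0.0048, adjusted p = 0.040; rho = 0.81, exact p = 0.022, adjusted p = 0.091), which were 0.55 and 0.56 without the same libraries.

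Ebf1 moved with Vpreb3 (r = 0.92, exact p = 0.0010, adjusted p = 0.015; rho = 0.93, exact p = 0.0022, adjusted p = 0.028), with r = 0.85 without HFD 1 and HFD 3. Ebf1 and Pax5 had r = 0.72 (exact p = 0.029, adjusted p = 0.11) and rho = 0.93 (exact p = 0.0022, adjusted p = 0.028), and r was 0.60 without HFD 1 and HFD 3. Dntt showed no such relation with the B lineage factors. Dntt and Ebf1 had r = 0.0020 (exact p = 1.00, adjusted p = 1.00; rho = 0.095, exact p = 0.84, adjusted p = 0.95), and Dntt and Pax5 had r = -0.18 (exact p = 0.59, adjusted p = 0.86; rho = 0.024, exact p = 0.98, adjusted p = 0.98). Without HFD 1 and HFD 3 these r were -0.18 and -0.47. Vpreb1 and Vpreb3 had r = 0.83 (exact p = 0.0077, adjusted p = 0.048; rho = 0.81, exact p = 0.022, adjusted p = 0.091), and 0.74 without HFD 3 and CF 4. The surrogate light chain gene Vpreb2, at low counts, moved with Rag1 (r = 0.83, exact p = 0.0088, adjusted p = 0.050; rho = 0.83, exact p = 0.015, adjusted p = 0.077), and r was 0.86 without HFD 1 and HFD 3. With its near copy Vpreb1 it had r = 0.75 (exact p = 0.030, adjusted p = 0.11; rho = 0.64, exact p = 0.096, adjusted p = 0.27), but 0.25 without HFD 3 and CF 4.

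Dntt, Rag1, Rag2 and Il7r were also related to genes outside the list. Flt3, the receptor by which the cells were sorted, had r = 0.95 with Dntt (exact p = 0.0004, adjusted p = 0.011; rho = 0.93, exact p = 0.0022, adjusted p = 0.028), and 0.78 without HFD 1 and HFD 3. With Rag2 it had r = 0.90 (exact p = 0.0001, adjusted p = 0.0056; rho = 0.90, exact p = 0.0046, adjusted p = 0.049), and 0.98 without those libraries. With Il7r it had r = 0.85 (exact p = 0.0033, adjusted p = 0.035; rho = 0.95, exact p = 0.0011, adjusted p = 0.028), and 0.67 without them. With Rag1 it had r = 0.83 (exact p = 0.0093, adjusted p = 0.050; rho = 0.83, exact p = 0.015, adjusted p = 0.077), and 0.72 without them. Neutrophil markers ran the other way. Their sum was 20912, 3654, 1307 and 980 CPM in HFD 1 to 4 and 1993, 6698, 6233 and 6082 CPM in CF 1 to 4, and against Il7r it had r = -0.92 (exact p = 0.0021, adjusted p = 0.027; rho = -0.95, exact p = 0.0011, adjusted p = 0.028), or -0.94 without HFD 1 and HFD 4. Against Rag2 it had r = -0.87 (exact p = 0.0066, adjusted p = 0.045; rho = -0.79, exact p = 0.028, adjusted p = 0.11), or -0.84 without them. Against Rag1 it had r = -0.83 (exact p = 0.011, adjusted p = 0.050; rho = -0.86, exact p = 0.011, adjusted p = 0.077), or -0.95 without them. Against Dntt it had r = -0.80 (exact p = 0.017, adjusted p = 0.076; rho = -0.76, exact p = 0.037, adjusted p = 0.14), or -0.66 without them. Against Ebf1 its r was -0.10 over all libraries (exact p = 0.81, adjusted p = 0.91; rho = -0.095, exact p = 0.84, adjusted p = 0.95) but -0.98 without HFD 1 and HFD 4. Without those libraries r was also negative for Vpreb3 (-0.17 over all libraries, -0.98 without them), Pax5 (0.38, then -0.93), Vpreb1 (-0.31, then -0.77) and Vpreb2 (-0.76, then -0.93), and it was positive for Igll1 (0.15, then 0.40). Over all 8 libraries the adjusted p of these 5 relations was 0.10 for Vpreb2 and 0.69 to 0.91 for the others (exact tests). Mature B cell markers had r = 0.79 with Vpreb3 (exact p = 0.0099, adjusted p = 0.050; rho = 0.86, exact p = 0.011, adjusted p = 0.077), and 0.81 without HFD 1 and CF 3. The part of these other cells in the levels of the 10 genes was not tested.

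**Figure D4:**
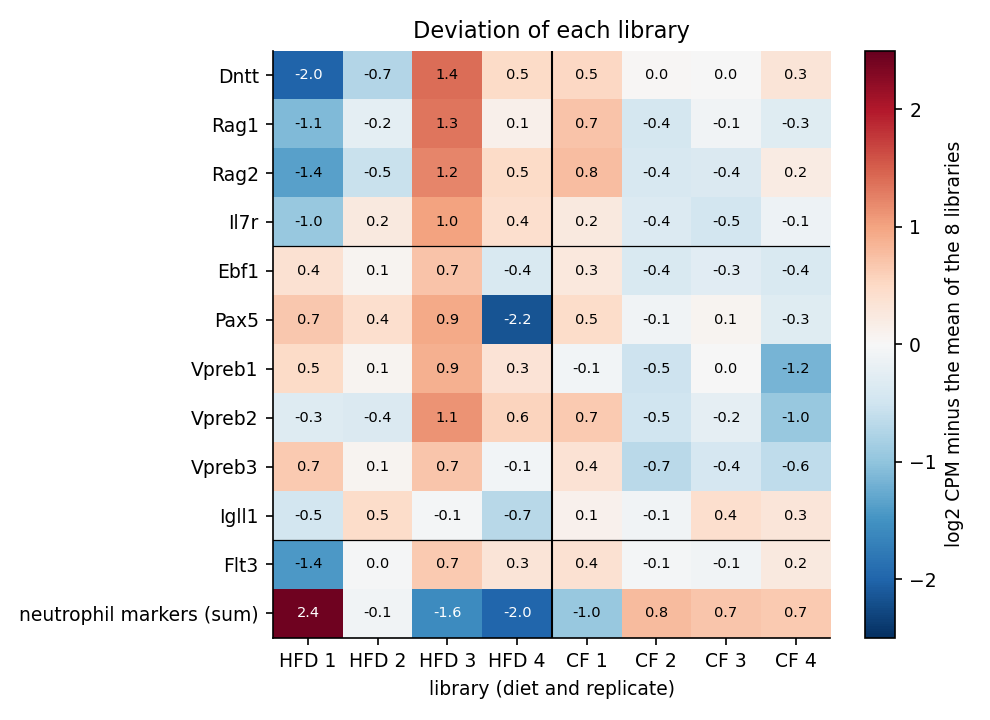
Deviation of each library (columns) from the mean of the 8 libraries, in log2 CPM without a prior count, for the 10 genes, Flt3 and summed neutrophil markers (rows). HFD 1 is low and HFD 3 high for Dntt, Rag1, Rag2, Il7r and Flt3, while HFD 1 is above the mean for Ebf1, Pax5, Vpreb1 and Vpreb3.

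A search of 14189 genes with a mean of at least 1 CPM named those whose pattern over the 8 libraries was most like that of 3 of the genes. The likeness is Pearson's r of log2 CPM, given as a description. For Dntt these were Laptm4b, Dnmt3b and Cd27, each with r = 0.99. For Il7r they were Gm13012 and A430033K04Rik with r = 0.99 and Cxxc5 with r = 0.98, and for Ebf1 they were Edc3 (0.97), Dnajc11 (0.96) and E130308A19Rik (0.93). None of these 9 genes was named for more than 1 of the 3.

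Other genes of lymphoid development were read in the same fit. In every list 0 genes were called by edgeR after adjustment, and lists are therefore given by the number with an unadjusted p under 0.05, to be read beside 3.22% of all genes higher and 5.34% lower. Of 24 lymphoid transcription factors 4 were higher and 1 (Id2, an inhibitor of E proteins) lower in HFD. The median log2 fold change of these factors was 0.18. Spib, a factor of pDC and B cells, had the lowest p of them, at 27.1, 52.7, 31.2 and 60.5 CPM in HFD 1 to 4 and 12.9, 23.2, 16.4 and 12.3 CPM in CF 1 to 4. Its diets did not overlap, with a log2 fold change of 1.40 ± 0.31 (SE) and edgeR adjusted p = 0.11. Bach2, a repressor that favours lymphoid over myeloid fate, was at 33.7 to 47.9 CPM in HFD and 16.1 to 31.9 CPM in CF (0.93 ± 0.22 SE, edgeR adjusted p = 0.14).

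Of 14 genes of interleukin-7 receptor signalling, 1 was higher and 0 lower at an unadjusted p under 0.05, and the median log2 fold change was 0.014. Pim1, a kinase induced by STAT5, had 0.46 ± 0.14 (SE, edgeR adjusted p = 0.26), and Stat5b had 0.21 ± 0.12 (SE, edgeR adjusted p = 0.74). Of 14 genes that join the ends made by the recombinase, 0 had an unadjusted p under 0.05 in either direction. The lowest p of these belonged to Xrcc5, which encodes Ku80, with a log2 fold change of 0.71 ± 0.40 (SE, edgeR adjusted p = 0.74). Hmgb1, a DNA-bending cofactor of the recombinase, had 0.25 ± 0.16 (SE, edgeR adjusted p = 0.78).

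Genes of pre-B cell receptor signalling, beyond the surrogate light chain, held 6 of 13 with an unadjusted p under 0.05 and higher values in HFD, against 3.22% of all genes tested, and 0 lower. Pik3ap1, an adaptor for PI3 kinase, was at 39.0 to 43.1 CPM in HFD and 28.9 to 32.5 CPM in CF (0.43 ± 0.09 SE, edgeR adjusted p = 0.088). Cd79a, the signalling chain of the B cell receptor, was at 10.2, 5.44, 10.1 and 6.70 CPM in HFD 1 to 4 and 5.12, 4.01, 4.63 and 3.79 CPM in CF 1 to 4 (0.88 ± 0.23 SE, edgeR adjusted p = 0.17). Its diets did not overlap.

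Genes of mature B cells and pDCs were read as markers of other cells, although the Lin- gate is meant to remove lineage-positive cells. Of 13 mature B cell genes tested, 7 were higher and 1 (Ciita) lower at an unadjusted p under 0.05, beside 3.22% and 5.34% of all genes, with a median log2 fold change of 0.68. The immunoglobulin chain Igkc ranged from 33.5 to 473 CPM in HFD and from 2.36 to 69.4 CPM in CF (edgeR adjusted p = 0.74), and HFD 1 was highest. Of 14 pDC genes 5 were higher and 0 lower, with a median of 0.50. Tcf4, the E protein that drives pDC fate, had a log2 fold change of 0.04 ± 0.16 (SE, edgeR adjusted p = 0.98). Siglech, a surface receptor of pDCs, was at 13.3, 49.5, 33.0 and 62.2 CPM in HFD 1 to 4 and at most 17.1 CPM in CF (1.47 ± 0.40 SE, edgeR adjusted p = 0.20). Among 13 surface genes of common lymphoid progenitors, 2 were higher and 0 lower: Ccr9 (1.56 ± 0.37 SE, edgeR adjusted p = 0.14) and Ly6d (1.22 ± 0.43 SE, edgeR adjusted p = 0.39), whose level reached 115 CPM in HFD 4. The median of that list was -0.076, with 5 fitted values above 0 and 8 below. At the same unadjusted limit, 0 of 13 conventional DC genes were higher and 4 lower, 1 of 12 erythroid genes and 1 of 11 T lineage and NK cell genes were higher, and 0 of 15 neutrophil, 12 monocyte and macrophage and 7 sort gate genes passed in either direction. The erythroid list had 12 of 12 fitted values above 0 and the highest median of these lists, 1.07, with its sum high in HFD 1. The T lineage and NK cell list had a median of 0.45, the neutrophil list 0.37 and the conventional DC list -0.52. The part of such cells in the levels of the 10 genes was not tested.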

How the data were processed

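RNA of sorted CDPs was sequenced in 8 libraries, 4 per diet, on total RNA amplified with NuGEN Ovation Solo. The deposited table holds raw counts per gene. According to the study's methods, the authors aligned reads with HISAT2, kept uniquely mapped pairs and counted them with StringTie on GENCODE genes, and GRCm38 is the build in the submitters' processing notes. Unique mapping can lower counts of near copies such as Vpreb1 and Vpreb2, and the loss was not measured. The annotation release and the use of strand in counting are not given in the sources used here. Totals were 28203651 to 48409689 counts, and the lowest count of any of the 10 genes in a library was 16. Intervals of counting error were not needed, since replicate spread was used.

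Counts were analysed with edgeR 4.0.16 in R 4.3.3 (filterByExpr, TMM, robust quasi-likelihood fit, diet as the only term), with Benjamini-Hochberg adjustment over 15837 genes and a threshold of 0.05. Log2 CPM used a prior count of 2. Symbols, exon lengths and coordinates came from GENCODE vM21 (16067 of 16119 genes matched), and upstream windows from RefSeq, which matched all 10 genes. Correlations used exact permutation tests over all orders of the libraries, with ranks and adjustment by scipy 1.17.1, and figures were drawn with matplotlib 3.10.9. The fit was tested on simulated data.

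The members and lists were chosen with earlier results of these data known. Genes named are the 10 genes, the 2 genes with the lowest p of each list on lymphoid development, set markers of other cells and of the sort, and the 3 genes most alike to Dntt, Il7r and Ebf1. Id2, Ciita, Top3b, B230118H07Rik, Gm12462 and 5730488B01Rik were named after their values were seen. Values of 1 further named gene are left out here. As alternatives, DESeq2 1.42.0 and voom in limma 3.58.1 were run, and edgeR was rerun with library size alone, with RLE size factors, without the filter, with 1 CPM in 4 libraries, on protein-coding genes alone, with the replicate number as a block and with each library left out in turn. Levels per kilobase were recomputed on the longest transcript. Leaving out libraries for the spread within a diet was chosen after seeing the data.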

Additional observations from a re-analysis of the deposited data

Results flagged for a closer look

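Of 24 groups of 4 libraries looked at, 2 held a library whose gap to the nearest other, over the range of its diet on the log2 scale, passed Dixon's critical value for 4 samples, where chance gives about 1 in 20. Pax5 in HFD 4, at 4.54 CPM against 26.9 to 38.9 CPM, fell just short of it, with a gap of 0.828 of the range beside 0.831 for Ebf1 in CF 1. Ebf1 was at 25.3 CPM in CF 1, the highest of its diet, and at 16.0 to 17.3 CPM in the other CF libraries. The summed neutrophil markers were lowest in CF 1, at 1993 CPM, against 6082 to 6698 CPM in the other CF libraries. CF 1 was also the highest CF library for Dntt, Rag1, Rag2, Il7r, Pax5, Vpreb2 and Vpreb3.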

How the results depend on the processing

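The number of the 10 genes called was 0 under all 16 alternatives. Il7r, Ebf1, Vpreb1, Vpreb2, Vpreb3 and the sum of Vpreb1 and Vpreb2 kept a fitted value above 0 and Igll1 one below 0 in every alternative run, and Vpreb2 had no value under the filter of 1 CPM in 4 libraries. With each library left out, the sum ranged from 0.53 to 0.95, Vpreb1 from 0.66 to 0.99, Vpreb2 from 0.16 to 0.92, Vpreb3 from 0.53 to 0.95, Ebf1 from 0.23 to 0.60, Il7r from 0.16 to 0.74 and Igll1 from -0.57 to -0.21 on the log2 scale. The signs of Dntt, Rag1, Rag2 and Pax5 were not stable. Limma voom gave -0.44 for Dntt, -0.074 for Rag2 and -0.10 for Pax5. With each library left out, Dntt ranged from -0.64 to 0.40, Rag1 from -0.37 to 0.57 and Rag2 from -0.42 to 0.42, with the lowest value of each without HFD 3. The cause was not tested. The number of all genes called was 67, and it was 108 with library size alone (10 higher in HFD), 567 with DESeq2 (64 higher) and 0 with protein-coding genes alone (537 at an unadjusted p under 0.05). It ranged from 0 to 200 with each library left out, at 200 without HFD 1 (34 higher), 154 without CF 4, 2 without HFD 4, 1 without HFD 2 and 0 without HFD 3, CF 1, CF 2 or CF 3. Library size alone moved the median log2 fold change of all genes from 0.055 to 0.25. With the longest transcript as length, 6 of 10 genes kept their place in the order of levels, and Ebf1 moved to 3.65 and Vpreb1 to 2.93 CPM per kilobase. For Igll1 that length was 2161 nt, against 2164 nt in the main setting, so the check could hardly move its level. Vpreb2, at 16 to 67 counts, was the gene most limited by depth.

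The sources used here do not say whether the replicate numbers pair the samples. The deviations of same-numbered libraries from the mean of their diet had correlations of -0.44, -0.08, -0.23 and -0.18. Such values, centred on 4 libraries per diet, cannot exclude pairing. With the replicate number as a block, edgeR called 0 genes (911 at an unadjusted p under 0.05), and the fitted value was -0.40 for Dntt, -0.067 for Rag2 and -0.013 for Pax5.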

Other observations

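Ratios between genes within a library were looked at after the levels had been seen, 6 in all, each tested by an exact two-sided permutation test over the 70 splits into 4 and 4, for which 0.029 is the smallest p possible. Il7r per Flt3, both in CPM, was 0.297, 0.255, 0.270 and 0.225 in HFD 1 to 4 and 0.191, 0.172, 0.164 and 0.163 in CF 1 to 4. The ratio was thus higher in 4 of 4 HFD libraries than in any CF library, including HFD 1, where both genes were low (exact p = 0.029, adjusted p = 0.17 over the 6 ratios). With the other ratios as they were, no p possible here could have given a lower adjusted p, so the adjusted test could not pass. Dntt per Flt3 was nearly constant in CF, at 0.587 to 0.616, and ran from 0.343 to 0.942 in HFD (exact p = 1.00, adjusted p = 1.00).

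Pax5 per Ebf1 was 0.283 in HFD 4 and 1.02 to 1.23 in the other 7 libraries. In the same library Cd79a was at 6.70 CPM and Ebf1 at 16.0 CPM, both within the range of the other libraries.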
